A study of Mus musculus with 3 samples.

Results

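The 45 interferon-stimulated genes described here are a list given by name, and their values come from RNA-seq of brain vessels of 3-month-old mice. Of the 45 genes, 43 were matched to the deposited transcripts by symbol, and 42 of these passed the minimum level, out of 16604 genes that passed it among 29787 in all. Gbp2 and Gbp6 were not matched, and Oas3 was matched but lay under the minimum. The data are 3 libraries, 1 per group. The Cx43-deleted library is from hGFAP-Cre/Cx43fl/fl mice on a C57BL6-BALB/c background, labelled Cx43 -/-, in which Cre under the human GFAP promoter acts in astroglia and in radial glia of the developing brain. The WT C57BL6-BALB/c library shares that background, the WT C57BL6 library does not, and the labels name neither Cre nor floxed alleles for the WT mice. The labels do not say how many animals went into a library.

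Interferons are secreted when cells sense viral nucleic acid or other danger signals, and they bind receptors whose JAK kinases phosphorylate STAT proteins. Type I interferon activates a complex with STAT2 and IRF9 that binds the interferon-stimulated response element (ISRE) in promoters, whereas interferon gamma activates STAT dimers that bind the gamma-activated site (GAS). Many of the induced proteins block viral entry, translation or replication, and many cells, brain endothelium and microglia among them, keep some of these genes on at a low tonic level without infection. Connexin 43 is the main gap junction protein of astrocytes and of their endfeet on brain vessels.

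The level of a gene is its count summed over its transcripts and scaled to library size, in CPM with TMM scaling. A log2 ratio compares levels with a pseudocount of 0.5, so −1 is 2-fold lower. A fold with an interval in brackets compares reads of the most abundant transcript of the gene and carries an exact (Clopper-Pearson) 95% binomial interval. These intervals cover counting error only and say nothing of variation between mice. With 1 library per group no test was possible, no p-value is given, and every difference below is a difference between libraries. The Cx43-deleted library held 54975610 reads, that of WT C57BL6-BALB/c 21170766 and that of WT C57BL6 24830975. Values given as 3 numbers without library names follow this order. Gja1, which encodes connexin 43, had a level of 48.0 with the deletion and of 202 in both WT libraries, which has the direction the labels give.

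The members were highest in the WT C57BL6 library, and the libraries on the mixed background differed little from each other. Of the 42 measured members, 41 had their highest level in WT C57BL6, against 43.8% of all genes measured. The median log2 ratio over the 42 was −0.85 for Cx43-deleted against WT C57BL6, with a range of −2.08 to −0.07, and −0.72 for WT C57BL6-BALB/c against WT C57BL6, with a range of −1.79 to 0.26. Cx43-deleted against WT C57BL6-BALB/c, the comparison within 1 background, gave a median of −0.19 and a range of −0.78 to 0.78. Over all genes the same medians were −0.03, −0.03 and 0.00295. The comparisons share libraries, so they are not independent of each other.

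Promoters of 5 members are printed, those with the exact core of the ISRE and the largest ratios between libraries. Zbp1 and Irf7 had ratios as large but are not printed. The sequences are from RefSeq on GRCm38.p6, run 5′ to 3′ on the strand of the gene, and span 150 bases before to 30 bases after the start site. Capitals mark every match of the ISRE core GAAANNGAA on either strand and of the GAS TTCNNNGAA.
Igtp, chr11:58199406-58199585, plus strand: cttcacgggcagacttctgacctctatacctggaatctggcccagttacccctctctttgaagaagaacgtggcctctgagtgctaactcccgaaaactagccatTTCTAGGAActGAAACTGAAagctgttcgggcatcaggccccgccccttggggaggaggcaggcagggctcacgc
Rsad2, chr12:26456423-26456602, minus strand: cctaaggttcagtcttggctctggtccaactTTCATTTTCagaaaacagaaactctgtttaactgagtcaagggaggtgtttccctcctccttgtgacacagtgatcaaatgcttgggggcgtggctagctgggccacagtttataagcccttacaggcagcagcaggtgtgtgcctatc
Isg15, chr4:156200789-156200968, minus strand: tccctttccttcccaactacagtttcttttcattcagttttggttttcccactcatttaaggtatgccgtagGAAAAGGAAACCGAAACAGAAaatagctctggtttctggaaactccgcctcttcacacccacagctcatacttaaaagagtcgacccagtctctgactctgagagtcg
Gbp3, chr3:142559894-142560073, plus strand: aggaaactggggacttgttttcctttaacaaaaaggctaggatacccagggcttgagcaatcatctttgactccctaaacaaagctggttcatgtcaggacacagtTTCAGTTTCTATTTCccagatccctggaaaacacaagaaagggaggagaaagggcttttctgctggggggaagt
Ifitm3, chr7:141010715-141010894, minus strand: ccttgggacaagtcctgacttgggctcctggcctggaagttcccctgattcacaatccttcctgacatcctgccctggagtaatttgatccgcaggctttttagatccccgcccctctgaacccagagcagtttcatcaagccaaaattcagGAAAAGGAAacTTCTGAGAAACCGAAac
Igtp holds a GAS and an ISRE core next to each other just upstream of its start site, and Isg15 holds 3 overlapping ISRE cores in a row. Gbp3 has 2 overlapping cores on the opposite strand, and Rsad2 has 1, further upstream. In Ifitm3 the 2 cores and the GAS, which overlaps the downstream core by 3 bases, lie after the annotated start site.

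RefSeq promoters of 300 bases, from 250 before to 50 after the start site, were found for 32 of the 45 members. The ISRE core was in those of 21 members, or 65.6%. By promoter it was in 58.3% of 36 member promoters and in 8.56% of all 32851. With 1 more A after the core, the core was in 18 member promoters and 3.44% of all. The GAS was in 9 of the 32 members, 28.1%, and by promoter in 9 of 36 against 8.3% of all. Irf1, Ifi35 and Ifit2 had a GAS without an ISRE core. Bst2, Eif2ak2, Gbp7, Ifitm3, Igtp and Oas1a had both motifs.

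The 19 measured members with an ISRE core had a median log2 ratio of −1.09 for Cx43-deleted against WT C57BL6, and the 11 with a promoter in the table but no core had one of −0.64. For WT C57BL6-BALB/c against WT C57BL6 the medians were −0.83 and −0.59, and for Cx43-deleted against WT C57BL6-BALB/c they were −0.26 and −0.15. Of those 11, the 8 with neither motif had medians of −0.94, −0.68 and −0.23 in the same comparisons. The first and last of these were nearer to those with a core. The second, between the WT libraries, was nearer to those without one. For Cx43-deleted against WT C57BL6, the 9 measured members with a GAS had a median of −0.63 and the 21 without one of −1.07. Irf7 and Oasl2, at −1.68 and −1.25 against WT C57BL6, are in the group without a core, and Stat2 and Gbp7, at −0.08 and −0.12, are in the group with one, so the groups overlap throughout. A match is a description of letters and not of a bound site, and a promoter without one may hold variants that were not searched for.

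**Figure D1:**
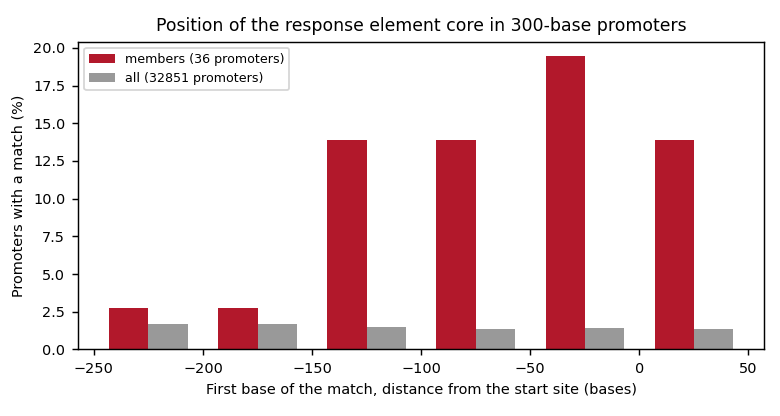
Share of promoters (%) with an ISRE core whose first base falls in each bin of 50 bases, by distance from the start site in bases, for 36 promoters of members (red) and all 32851 promoters (grey). Between 150 bases upstream and 50 downstream the members' share per bin was 13.9% to 19.4%, and over all promoters no bin passed 1.70%.

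Cx43-deleted against WT C57BL6-BALB/c compares the deletion with WT of the same named background. With 1 library each, the deletion cannot be told apart from Cre or from other differences between the mice. Here 0 members were 2-fold or more lower, against 1.01% of all genes, and 0 were 2-fold or more higher, against 1.05%. At 1.5-fold, 2 were lower, Gbp3 and Gbp4 (4.06% of all genes), and 1 was higher, Oas2 (3.17%), shares of 4.76% and 2.38% that lie near the background. Without regard to size, 32 of 42 were lower, against 49.5% of all genes. The counting interval lay below 1 for 19 members (23.6% of all genes) and above 1 for 5 (25.3%), which are Oas2, Ifi27, Trim25, Irf9 and Stat2.

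Cx43-deleted against WT C57BL6 adds the difference of background to that of the deletion, and these cannot be told apart there. In it 19 members were 2-fold or more lower, against 2.91% of all genes, and 28 were 1.5-fold or more lower, against 12.1%. At 2-fold 0 were higher (1.54%), as at 1.5-fold (8.83%). All 42 members were lower by some amount, where 52.9% of all genes were, and 39 had an interval below 1 (38.0% of all genes). The other 3, Oas1a, Herc6 and Gbp7, had intervals that reach across 1.

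Between the WT libraries, which differ in background and carry no deletion, 12 members were 2-fold or more lower in WT C57BL6-BALB/c (2.09% of all genes) and 27 were 1.5-fold or more lower (9.01%), while 0 were higher at 2-fold (1.17%) or at 1.5-fold (6.39%). The count of members lower by any size was 41 (53.3%), of which 40 had an interval below 1 (32.9%). Herc6, an ISG15 ligase in mice, was the exception and was 1.20-fold higher (1.06 to 1.36) in WT C57BL6-BALB/c.

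Markers of endothelial cells differed between these libraries in the same direction as the members. Of 18 endothelial markers, 16 were highest in WT C57BL6, against 43.8% of all genes. Their summed levels were 11583, 10666 and 16780, and 0 of them were at 0 in any library. Their median log2 ratios were −0.11, −0.75 and −0.68 for Cx43-deleted to WT C57BL6-BALB/c, Cx43-deleted to WT C57BL6 and WT C57BL6-BALB/c to WT C57BL6. Relative to the endothelial median, the members' median against WT C57BL6 was −0.09 for Cx43-deleted, with 24 of 42 lower (57.1%, against 6.81% of all genes). On this scale 3 members, or 7.14%, were 2-fold or more lower, Zbp1, Igtp and Rsad2, against 0.343% of all genes. The same measure between the WT libraries had a median of −0.03, with 22 lower (52.4% against 6.17%) and 1 at 2-fold, Zbp1 (2.38% against 0.301%). Within the mixed background the median moved from −0.19 to −0.08, with 26 lower (61.9% against 33.0%) and 0 at 2-fold (0.807% of all genes). The median of all genes on this scale was 0.11, 0.72 and 0.65 in the order of comparisons above. The part of cell composition in the members' ratios was not tested, and in bulk RNA fewer cells of a type and less RNA per cell cannot be told apart.

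**Figure D2:**
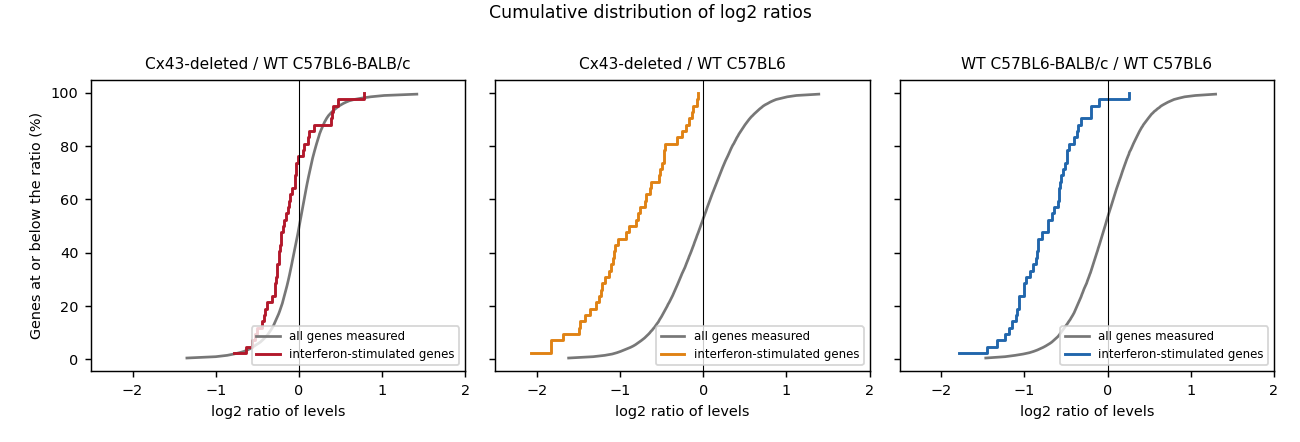
Cumulative share (%) of genes at or below each log2 ratio of levels, for the 42 members (coloured steps) and all 16604 genes (grey), in the 3 comparisons. In the comparisons with WT C57BL6 the members' medians are −0.85 and −0.72 against −0.03 for all genes, and within the mixed background the curves lie closer, at −0.19 and 0.00295.

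The plot of levels by library shows that the order WT C57BL6, WT C57BL6-BALB/c, Cx43-deleted from high to low held for 31 of the 42 members, 73.8%, against 26.4% of all genes. In 10 members Cx43-deleted lay between the WT libraries, 23.8% against 17.3% of all genes. These were Stat2, Irf9, Oas1a, Oas2, Trim25, Mx1, Samd9l, Ifi27, Ifi35 and Rtp4. Herc6 alone was highest in WT C57BL6-BALB/c. Thus Cx43-deleted was the lowest library for 32 members (35.6% of all genes) and the highest for 0 (33.2%). WT C57BL6 was 2-fold or more above both other libraries for 12 members, against 0.988% of all genes.

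**Figure D3:**
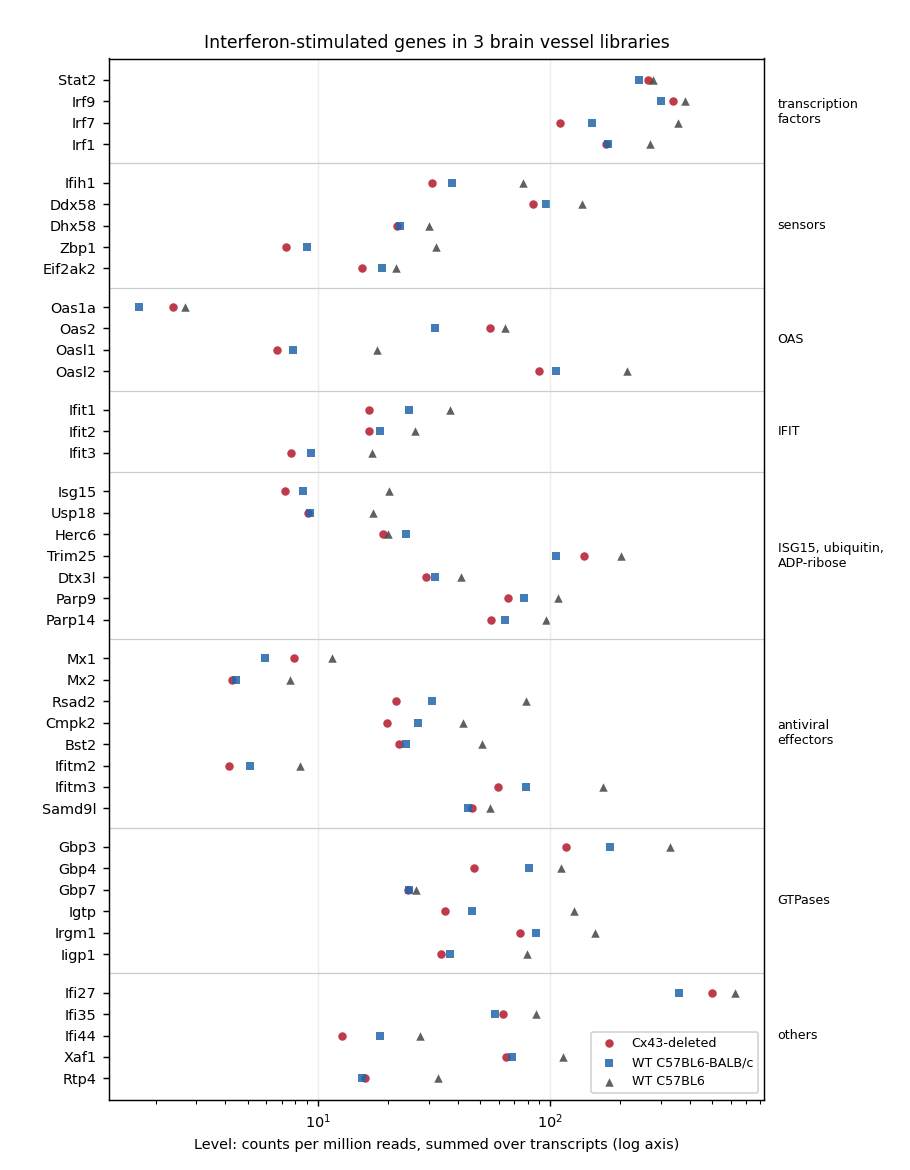
Level of each of the 42 measured members in the 3 libraries (CPM summed over transcripts, log axis), grouped by role, 1 point per library. The WT C57BL6 triangle is the rightmost point in 41 of 42 rows.

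Levels can be compared between genes only per length. In reads per kilobase of transcript, scaled for depth, Ifitm3, a membrane protein that blocks viral fusion, was the most abundant member in each library at 96.3, 128 and 273. Ifi27, a small hydrophobic interferon-induced protein, followed at 83.4, 60.0 and 104. Bst2, tetherin, which holds budding virions at the cell surface, was at 29.4, 31.8 and 67.5, near Stat2 and Irf9 in both libraries of the mixed background. At the low end, Mx1 was at 0.606, 0.446 and 0.919, with Zbp1, Oasl1, Oas1a and Mx2 next above it in an order that differed between libraries.

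Against WT C57BL6, the transcription factors split into a pair with smaller differences and a pair with larger ones. Stat2 and Irf9 are parts of the ISRE-binding complex. Stat2 was at 263, 241 and 278, and Irf9 at 339, 299 and 382. Both were lowest in WT C57BL6-BALB/c, and Cx43-deleted was 1.09-fold (1.04 to 1.14) and 1.13-fold (1.06 to 1.19) above it. WT C57BL6-BALB/c was 1.15-fold (1.09 to 1.21) and 1.23-fold (1.16 to 1.31) lower than WT C57BL6. Irf7, the factor that amplifies interferon alpha transcription, was at 111, 151 and 357. It was 3.24-fold lower (2.98 to 3.52) in Cx43-deleted and 2.32-fold lower (2.09 to 2.56) in WT C57BL6-BALB/c than in WT C57BL6, and it was 1.40-fold lower (1.25 to 1.56) in Cx43-deleted than in WT C57BL6-BALB/c. Irf1, which also mediates responses to interferon gamma, was at 173, 178 and 269, so that only WT C57BL6 stood apart. The median of the 4 was −0.40 and −0.47 against WT C57BL6 and became 0.35 and 0.21 relative to the endothelial markers.

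All 5 sensors of viral nucleic acid were lowest in Cx43-deleted. Zbp1, a sensor of Z-form nucleic acid that can trigger necroptosis, had the largest ratio of any member, with levels of 7.29, 9.01 and 32.4 from 175, 86 and 338 reads. It was 4.08-fold lower (3.39 to 4.92) in Cx43-deleted and 3.28-fold lower (2.58 to 4.21) in WT C57BL6-BALB/c than in WT C57BL6. The libraries of the mixed background differed 1.24-fold with an interval of 0.949 to 1.62 that holds 1. Ifih1, which encodes MDA5, was at 30.9, 37.9 and 76.4, and was 1.22-fold lower (1.09 to 1.37) in Cx43-deleted than in WT C57BL6-BALB/c. Ddx58, which encodes RIG-I, was at 84.7, 96.1 and 137, a smaller spread than that of Ifih1. Dhx58, which encodes their regulator LGP2, was at 21.8, 22.6 and 30.1, with the libraries of the mixed background equal within counting error. Eif2ak2, the kinase PKR that stops translation, was at 15.5, 18.9 and 21.6. The medians of the 5 were −0.28 within the mixed background, −0.69 for Cx43-deleted against WT C57BL6 and −0.51 for one WT library against the other, of which the last pair turned to 0.06 and 0.18 relative to the endothelial markers.

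The OAS family, enzymes that make the oligoadenylate messenger of RNase L and their relatives, went in both directions within the mixed background. Oas2 was at 55.2, 32.0 and 63.8. The low library was therefore WT C57BL6-BALB/c, with Cx43-deleted 1.72-fold above it (1.49 to 1.99), the largest ratio upwards of any member in that comparison. Oasl1, which restrains Irf7 translation, and Oasl2 had the other order, with levels of 6.69, 7.83 and 17.9 for Oasl1 and 89.6, 106 and 214 for Oasl2. Oasl2 was 2.48-fold lower (2.33 to 2.65) in Cx43-deleted and 2.11-fold lower (1.94 to 2.29) in WT C57BL6-BALB/c than in WT C57BL6. Oas1a was at 2.39, 1.70 and 2.68, but only 27.7% to 30.8% of its bases had a read in any library and near-identical Oas1 copies adjoin it, so its value is uncertain. Oas3 had 19, 2 and 16 reads and is given no ratio. The median of the 4 measured was 0.09 within the mixed background, −0.73 for Cx43-deleted against WT C57BL6, and −0.996 for WT against WT, which relative to the endothelial markers became 0.20, 0.02 and −0.31.

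Of the IFIT proteins, Ifit1 binds viral RNA that lacks host cap methylation. The 3 IFIT members had 1 order, WT C57BL6 highest and Cx43-deleted lowest. Ifit1 was at 16.6, 24.8 and 37.0. It was 1.49-fold lower (1.34 to 1.66) in Cx43-deleted than in WT C57BL6-BALB/c and 1.49-fold lower (1.34 to 1.66) again in WT C57BL6-BALB/c than in WT C57BL6, so both steps had the same size. Ifit2 was at 16.5, 18.4 and 26.1, and its interval within the mixed background, 0.984 to 1.26, held 1. Ifit3 was at 7.66, 9.34 and 17.1, with reads on 40.5% to 49.3% of its bases, and a near-identical copy, Ifit3b, makes it uncertain. Their medians were −0.27, −1.11 and −0.57 in the 3 comparisons, and −0.16, −0.35 and 0.12 relative to the endothelial markers.

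Genes of ISG15 and ADP-ribose modification held both the exception to the general order and a member that was lowest in WT C57BL6-BALB/c. Isg15, a ubiquitin-like modifier, was at 7.23, 8.63 and 20.3 from 388, 183 and 515 reads. It was 2.80-fold lower (2.45 to 3.21) in Cx43-deleted than in WT C57BL6, and 1.19-fold lower (0.995 to 1.43) than in WT C57BL6-BALB/c. Usp18, which removes ISG15 and damps the interferon receptor, was at 9.08, 9.29 and 17.2, equal within counting error in the libraries of the mixed background. Herc6 was at 19.1, 24.1 and 20.0, an order that Isg15 did not share, with 13.7% of its exon bases shared with another gene. Trim25, a ubiquitin ligase that acts on RIG-I, was at 140, 106 and 202, and Cx43-deleted exceeded WT C57BL6-BALB/c 1.32-fold (1.23 to 1.42). Dtx3l and its partner Parp9 share a stretch of sequence on opposite strands of chromosome 16, so some reads count for both. Dtx3l was at 29.1, 31.9 and 41.3, Parp9 at 66.2, 77.1 and 108, and Parp14, a mono-ADP-ribosyltransferase near them, at 55.8, 63.9 and 96.3. All 3 had the common order. The group's medians of −0.70 and −0.59 against WT C57BL6 became 0.05 and 0.10 relative to the endothelial markers.

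Of the other antiviral effectors, Rsad2 and Ifitm3 showed the largest ratios. Rsad2, viperin, which makes a chain-terminating nucleotide, was at 21.7, 30.9 and 78.5 from 555, 316 and 965 reads. In Cx43-deleted it was 3.67-fold lower (3.30 to 4.08) than in WT C57BL6 and 1.44-fold lower (1.25 to 1.66) than in WT C57BL6-BALB/c. Cmpk2, a nucleotide kinase that adjoins Rsad2 on chromosome 12 in the opposite direction, was at 19.9, 26.9 and 42.3, and was 2.12-fold (1.95 to 2.31) and 1.35-fold (1.22 to 1.496) lower in these comparisons. The neighbours thus had 1 order, with the smaller ratios in Cmpk2.

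Ifitm3 was at 59.4, 78.8 and 169 from 3188, 1672 and 4287 reads. Both libraries of the mixed background were well below WT C57BL6, Cx43-deleted by 2.84-fold (2.71 to 2.97) and WT C57BL6-BALB/c by 2.14-fold (2.02 to 2.27). Ifitm2 of the same cluster was at 4.16, 5.09 and 8.38, but another annotated gene overlaps 40.9% of its exon bases. Bst2 was at 22.3, 24.1 and 51.1, with WT C57BL6 2.29-fold above Cx43-deleted (2.12 to 2.48) and a ratio within the mixed background of 1.08-fold (0.972 to 1.20). The dynamin-like Mx proteins trap viral nucleocapsids, and common laboratory strains carry defective alleles of Mx1. Mx1 was at 7.89, 5.94 and 11.5 and Mx2 at 4.29, 4.43 and 7.60, and neither differed beyond counting error within the mixed background. Samd9l, an inhibitor of translation, was at 46.3, 44.4 and 55.3, the narrowest range of this group. The 8 had medians of −0.19, −0.9997 and −0.81 in the 3 comparisons, and of −0.25 and −0.12 against WT C57BL6 relative to the endothelial markers.

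The interferon-inducible GTPases, which attack the vacuoles of intracellular pathogens, had the lowest group median, −1.23 for Cx43-deleted against WT C57BL6, and one of −0.84 between the WT libraries. Relative to the endothelial markers these became −0.47 and −0.15. Gbp4 was at 47.2, 81.3 and 112. In Cx43-deleted it was 1.72-fold lower (1.62 to 1.83) than in WT C57BL6-BALB/c, the largest ratio downwards within the mixed background, and 2.37-fold lower (2.24 to 2.4995) than in WT C57BL6. Gbp3 was at 117, 182 and 327, and Cx43-deleted was 1.53-fold lower (1.42 to 1.65) than WT C57BL6-BALB/c. Gbp7, which adjoins Gbp3 on chromosome 3, was at 24.4, 24.7 and 26.6, so the neighbours did not share a pattern. For Gbp7 all 3 intervals held 1, and 11.3% of its exon bases overlap another gene.

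Igtp, also called Irgm3, was at 35.2, 46.0 and 127 from 1888, 976 and 3215 reads. It was 3.60-fold lower (3.396 to 3.81) in Cx43-deleted and 2.75-fold lower (2.56 to 2.96) in WT C57BL6-BALB/c than in WT C57BL6. A further Igtp transcript was left out of these values because its 1905, 1136 and 3401 reads were within 2 reads of those of the adjoining Irgm2, at 1905, 1135 and 3403. With it the log2 ratios were −0.49, −1.87 and −1.38 in place of −0.38, −1.83 and −1.45. Irgm1, a regulator of the other GTPases, was at 74.4, 87.3 and 156, and Iigp1, which coats parasite vacuoles, at 33.9, 37.0 and 79.7. Both kept the common order, with Irgm1 2.11-fold (1.99 to 2.23) and Iigp1 2.36-fold (2.19 to 2.55) lower in Cx43-deleted than in WT C57BL6.

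The remaining 5 members had mixed orders within the mixed background. Ifi27 was at 499.8, 361 and 624, and Cx43-deleted exceeded WT C57BL6-BALB/c 1.39-fold (1.305 to 1.48). Ifi44, a GTPase-like protein induced by type I interferon, went the other way at 12.7, 18.5 and 27.6, with Cx43-deleted 1.40-fold lower (1.19 to 1.64) than WT C57BL6-BALB/c. Ifi35, Xaf1 and Rtp4 were equal within counting error in these libraries. Ifi35, a partner of Nmi, was at 62.6, 58.0 and 87.4, Xaf1, an antagonist of the apoptosis inhibitor XIAP, at 64.8, 68.8 and 114, and Rtp4, a receptor transporter protein, at 15.98, 15.5 and 32.9. Rtp4 was 2.06-fold lower (1.87 to 2.27) in Cx43-deleted than in WT C57BL6. The exon bases of Ifi35 and Rtp4 overlap other genes by 16.8% and 13.9%.

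**Figure D4:**
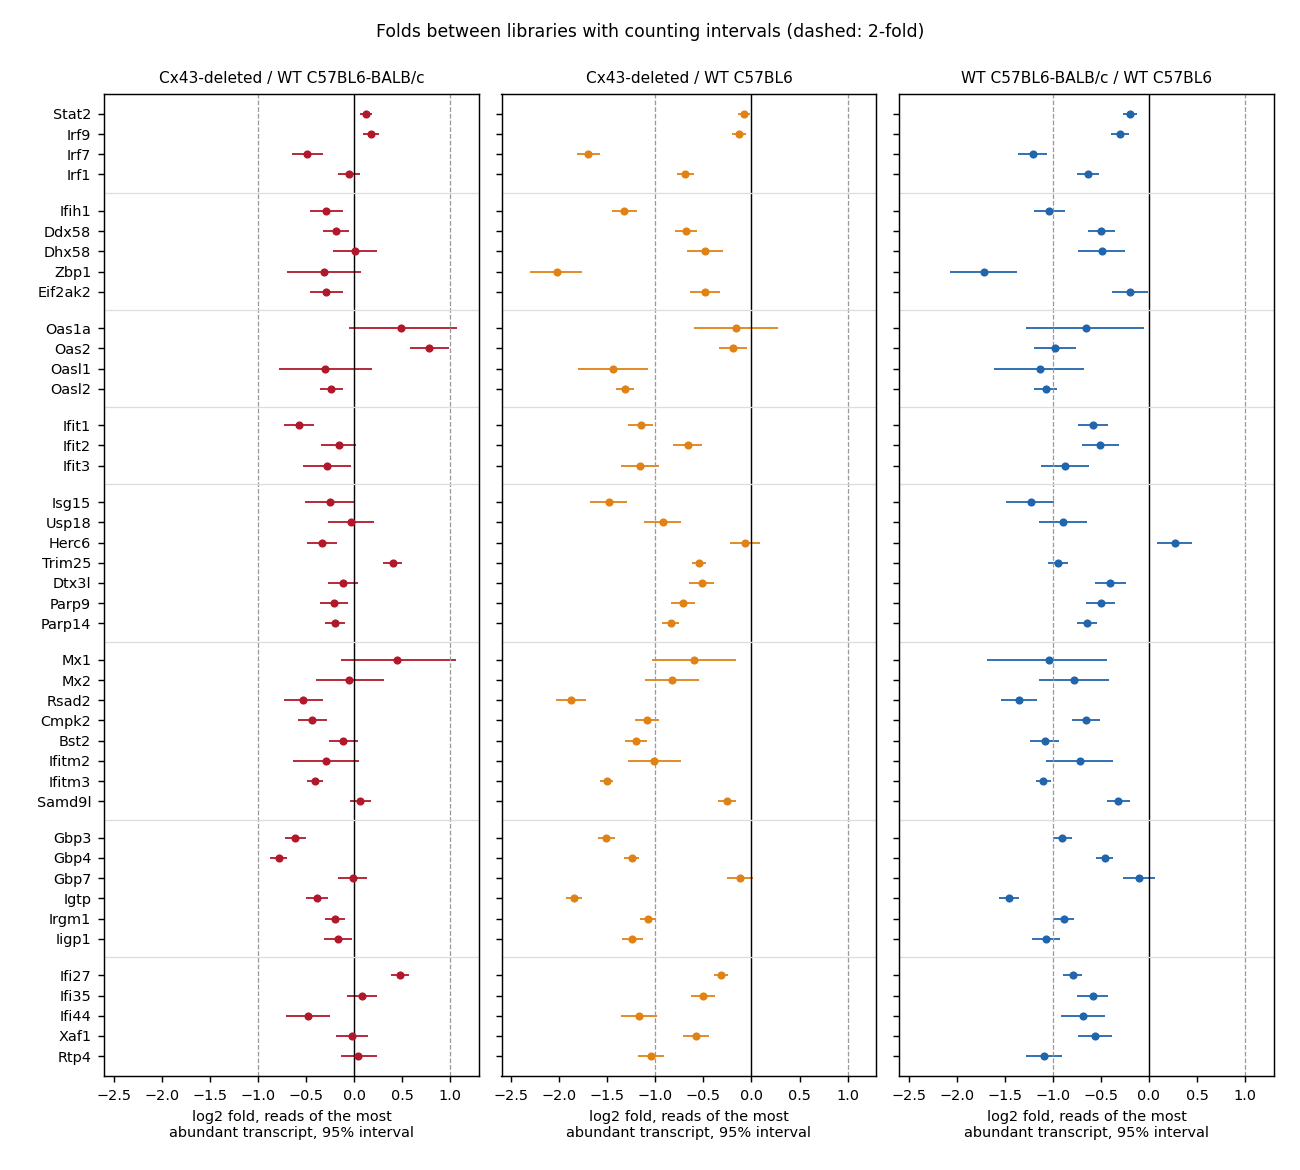
Log2 fold of the reads of each member's most abundant transcript in the 3 comparisons, with exact 95% intervals for counting error, and dashed lines at 2-fold. Within the mixed background (left) no fold passes 2 and the members lie on both sides of 0, and against WT C57BL6 (middle and right) Herc6 is the single member to the right of 0, at 1.20-fold between the WT libraries.

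The ligands of the pathway were not detected above the minimum level. Of 21 interferon genes, 20 were matched and 0 measured, and no ligand had more than 3 reads in a library. Ifng had 3, 2 and 1 reads, and Ifnb1 had 0 in each library. Here 3 reads are a level of 0.0559, 0.141 and 0.118, the most that a count of 0 allows, so the depth permits no comparison of the ligands.

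All 6 interferon receptors were measured, and 5 of them were highest in WT C57BL6 (43.8% of all genes). Ifnar1 was at 313, 338 and 446 and Ifnar2 at 125, 131 and 230. These chains of the type I receptor were close to each other in the libraries of the mixed background. Ifngr1 and Ifngr2, of the interferon gamma receptor, were at 41.3, 47.7 and 60.3 and at 49.1, 47.1 and 59.7. Il10rb, shared by interleukin 10 and interferon lambda receptors, was at 115, 156 and 233. It was the 1 receptor 2-fold lower in Cx43-deleted than in WT C57BL6 (2.91% of all genes), but 14.9% of its exon bases overlap another gene. Ifnlr1 was at 1.86, 2.07 and 2.05. The receptor medians were −0.12, −0.53 and −0.37, of which the last pair became 0.23 and 0.32 relative to the endothelial markers.

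Of 4 other JAK and STAT genes, Jak1 was at 147, 152 and 161, Jak2 at 199, 252 and 196, Tyk2 at 96.9, 94.5 and 75.3, and Stat3 at 372, 388 and 508. Jak1 and Stat3 had the order of the members with smaller differences, Jak2 was highest in WT C57BL6-BALB/c, and Tyk2 was lowest in WT C57BL6. Over the 4 the medians were −0.05, −0.05 and 0.12, and 0.0504, 0.699 and 0.805 relative to the endothelial markers.

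Among 17 measured nucleic acid sensing receptors, adaptors and kinases of 18 listed, the medians were −0.08, −0.44 and −0.32, and 0.0280, 0.32 and 0.36 relative to the endothelial markers. WT C57BL6 was the highest library for 12 (43.8% of all genes). Tmem173, which encodes the adaptor STING, was at 4.996, 6.55 and 11.5. It was the 1 gene of this list that was 2-fold lower in Cx43-deleted than in WT C57BL6 (2.91% of all genes). The kinase Ikbke, at 9.47, 11.3 and 12.99, the RNA-binding Zc3hav1, at 63.1, 78.4 and 92.6, and Tlr8, at 1.40, 2.07 and 2.20, were also lowest in Cx43-deleted. Tlr8 had only 35, 21 and 26 reads, and its intervals against both WT libraries held 1. Irf5, at 8.02, 5.80 and 11.1, had its low in WT C57BL6-BALB/c. Tlr3, at 19.2, 20.9 and 34.7, and the adaptor Myd88, at 35.7, 39.8 and 62.9, stood apart mainly in WT C57BL6. The exon bases of Irf5 and Myd88 overlap other genes by 14.1% and 11.3%.

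The 14 genes that restrain interferon signalling had medians of 0.02, −0.16 and −0.16, and 0.13, 0.59 and 0.52 relative to the endothelial markers. Cx43-deleted was the lowest library for 5 (35.6% of all genes) and the highest for 5 (33.2%), counts that lie near the background. Nlrc3 was highest in Cx43-deleted at 6.10, against 3.44 and 2.95. Irf2, which antagonises Irf1, was at 71.9, 55.7 and 50.1. Trex1, a DNA exonuclease whose exons lie wholly within those of other annotated genes, was at 43.6, 63.0 and 78.2, and Tnfaip3, an inhibitor of NF-kB, at 24.3, 31.7 and 44.99. Socs1, the feedback inhibitor of JAK kinases, was at 1.72, 1.18 and 2.72, Samhd1 at 305, 214 and 346, and Ptpn6 at 10.2, 10.2 and 14.8. Of the 14, 8 were highest in WT C57BL6 (43.8% of all genes), with Trex1, Tnfaip3, Socs1, Samhd1 and Ptpn6 among them.

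A list of 52 other interferon-inducible genes, of which 46 were measured, had medians of 0.01, −0.79 and −0.76, and 0.12, −0.03 and −0.07 relative to the endothelial markers. As with the members, 37 of the 46 were highest in WT C57BL6 (43.8% of all genes). Cx43-deleted was the lowest library for 22 (35.6%) and the highest for 6 (33.2%). Against WT C57BL6, 12 were 2-fold or more lower in Cx43-deleted (2.91% of all genes) and 1 was higher (1.54%). The 1 higher was Gbp2b, with 229 reads in Cx43-deleted against 4 in the WT of that background and 1 in the other WT, a 22.6-fold difference (8.72 to 83.8) and a 108-fold difference (19.3 to 4302). Gbp8 was also highest in Cx43-deleted, at 6.15 against 3.11 and 3.54.

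Irgm2, a relative of Irgm1, was at 71.0, 107 and 268, with the order of Igtp, whose left-out transcript holds its reads. Trim34a was at 4.94, 6.70 and 22.1, Ifi47 at 35.5, 41.0 and 109, and the chemokine Cxcl10 at 2.24, 1.56 and 4.41. WT C57BL6 was the high library for each. Ifi203 was at 12.3, 22.9 and 21.5, so that Cx43-deleted stood apart from both WT libraries, and reads shared with its paralogs make it uncertain.

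**Figure D5:**
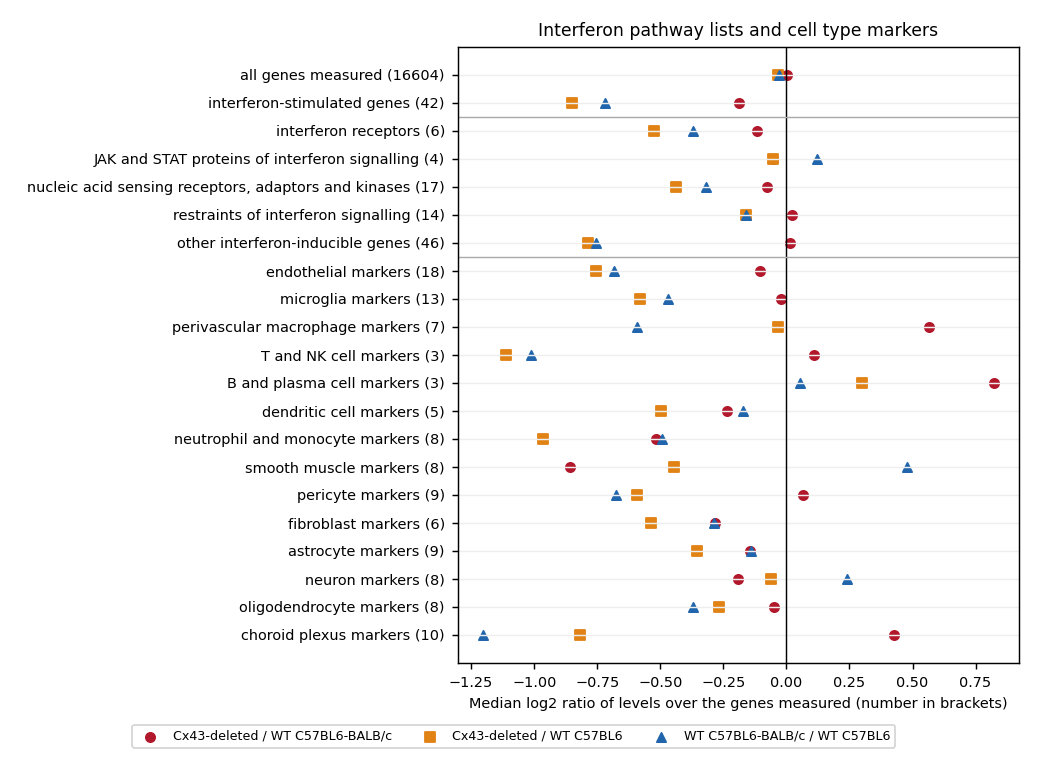
Median log2 ratio of levels in the 3 comparisons for the members, the lists of the interferon pathway and markers of cell types, with the number of genes measured in brackets. The members lie at −0.85 and −0.72 against WT C57BL6 (orange and blue), near the endothelial markers at −0.75 and −0.68. Choroid plexus markers, at −0.82 and −1.20, and pericyte markers, at −0.59 and −0.67, were also lower there. Neuron markers, at −0.06 and 0.24, and smooth muscle markers, at −0.44 and 0.48, had positive medians between the WT libraries.

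Markers of other cell types that carry interferon-stimulated transcripts were also measured. Of 13 microglia markers, 11 were highest in WT C57BL6, against 43.8% of all genes. Their medians were −0.02, −0.58 and −0.47, and their summed levels 415, 427 and 632. Choroid plexus markers, 10 of 10, were highest in WT C57BL6, with medians of 0.43, −0.82 and −1.20, and pericyte markers had 0.07, −0.59 and −0.67. Perivascular macrophage markers had 0.56, −0.03 and −0.59. The 8 measured of 12 neutrophil and monocyte markers had −0.52, −0.97 and −0.49, with summed levels of 16.5, 30.3 and 38.1. The T cell genes Cd3d, Cd3e and Cd3g were all under a level of 1. The 3 measured of 11 T and NK cell markers had medians of 0.11, −1.11 and −1.01. Their summed levels were 9.41, 6.88 and 14.5, and all 3 were highest in WT C57BL6. Smooth muscle markers had another order, at −0.86, −0.44 and 0.48, as did neuron markers, at −0.19, −0.06 and 0.24. The part of these cell types in the members' ratios was not tested.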

How the data were processed

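For each of the 3 libraries the authors deposited a table of 82813 Ensembl transcripts with their read counts as whole numbers, not normalised, per the file headers. The authors also deposited each count as a fraction of the library total, and the quotient gave those totals. Polyadenylated RNA was made into libraries with a TruSeq v2 kit that does not mark the strand, per the labels' protocols, so overlapping and antisense genes cannot be told apart. The submitters' processing notes name CASAVA 1.8.2, Bowtie and mm10. No source used here gives the counting program or its annotation release. The counts sum to 2.55, 2.53 and 2.45 times the totals, so reads entered more than 1 transcript's count. The deposited coordinates reach 197054592 on chromosome 1, beyond the last GRCm38 gene there (195323493), and were not used.

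Transcripts were matched by identifier to GENCODE M21 (GRCm38), which gave gene names and positions: 69379 matched (83.8%), and 217 on another chromosome than deposited were left out. Counts were summed per gene and divided by the library total, corrected by TMM in edgeR 4.0.16 and R 4.3.3 with factors of 0.976, 1.00 and 1.02. Genes with a level of 1 in at least 1 library were kept, and a pseudocount of 0.5 was used for log2 ratios, which understates ratios of low genes. A level of 1 is 53.6, 21.2 and 25.4 counts. Counting intervals and figures were made in Python 3.11.15 with scipy 1.17.1, pandas 2.3.3, numpy 2.4.6 and matplotlib 3.10.9. The steps were tested on simulated counts. The members and lists were chosen with earlier results of these data known. All members were named. In pathway lists other than receptors and JAK and STAT genes, up to 4 genes furthest from the nearer WT library and up to 4 furthest between the WT libraries were named. Alternatives were 2 pseudocounts, 2 scalings, 2 minimum levels, the most abundant transcript, ratios relative to endothelial markers and a longer ISRE. The left-out Igtp transcript and 2 further alternatives were chosen after seeing the data. A gene of the JAK and STAT list is not reported here.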

Additional observations from a re-analysis of the deposited data

How the results depend on the processing

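The medians and counts of the members and the medians of the pathway lists moved little under pseudocounts of 0.1 and 1, scaling by library total, median-of-ratios size factors, no minimum level or one of 5, the most abundant transcript, the shared Igtp transcript and the removal of members whose exons overlap another gene by over 10%. The medians relative to the endothelial markers did move, as this subtracts a list that also differs between the libraries; the median of all genes was then 0.11, 0.72 and 0.65 for Cx43-deleted against WT C57BL6-BALB/c, Cx43-deleted against WT C57BL6 and WT C57BL6-BALB/c against WT C57BL6. Within the mixed background, the members' median was then −0.0821, with 26 members lower by any size (33.0% of all genes) and 1 by 1.5-fold or more (2.72%). For Cx43-deleted against WT C57BL6 it was −0.0948, with 3 members 2-fold (0.343% of all genes), 8 members 1.5-fold (0.982%) and 24 by any size (6.81%) lower. Between the WT libraries it was −0.0336, with 1, 3 and 22 lower (0.301%, 0.879% and 6.17%). On this scale Cx43-deleted was below both WT libraries for 20 members (5.17% of all genes) and above both for 12 (65.3%), and WT C57BL6 was the highest for 18 (3.23%). The receptor medians turned to 0.23 and 0.32 against WT C57BL6 (Cx43-deleted, then WT C57BL6-BALB/c). JAK and STAT medians were 0.0504, 0.699 and 0.805 in the 3 comparisons, sensing genes were at 0.0280, 0.32 and 0.36, and other interferon-inducible genes at 0.12, −0.0345 and −0.0716. Restraints were at 0.59 and 0.52 against WT C57BL6. No replicate could be left out, as there is 1 library per group. No paired analysis was possible because the labels carry 1 library per group and no replicate numbers. Depth limits mainly Oas3, Oas1a, Mx1 and the ligands.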
